A study of Mus musculus with 21 samples.

Results

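Cx3cr1, P2ry12, Tmem119, Csf1r, Aif1, Trem2, C1qa, C1qb and C1qc are 9 of the 55487 genes counted in the hippocampal RNA of adult male mice after maternal separation (MS) or standard rearing (SR). They were chosen by symbol, the first 6 as genes of resident microglia and the last 3 as the chains of complement C1q, and each was found in the table under 1 Ensembl gene. All mice were wild type C57BL/6 males of 10 weeks. In MS, the pups of a nest were taken from the dam together for 4 hr each day from postnatal day 10 to 17 and kept in another cage that stood partly on a heating pad. Most of the nesting material of the MS home cages was also taken out until day 17, so the MS group carries separation and reduced nesting material at once. SR nests were left with the dam. Nests were assigned to a condition as wholes, and weaned mice lived in 3s with litter mates of the same sex. Each library was made from poly-A RNA of the hippocampus of 1 mouse (9 MS and 12 SR). One library, MS 5, lay apart from the rest and was left out, which left 8 MS and 12 SR mice; where it was kept, 21 libraries are named.

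Microglia are the resident macrophages of the brain. They settle there during development, depend on signalling through the receptor Csf1r, and in the undisturbed brain survey their surroundings and hold a homeostatic gene programme that includes Cx3cr1, P2ry12 and Tmem119. They are also the main source of C1q in the brain. C1q is the recognition molecule that starts the classical complement pathway by activating the proteases C1r and C1s, which leads to cleavage of C4, C2 and C3, and in the developing visual system complement tags synapses that microglia then take up through the complement receptor of which Itgam codes a chain.

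None of the 9 genes differed between MS and SR after adjustment over all genes tested (edgeR's quasi-likelihood test, threshold 0.05). Over the 18146 genes tested, 0.0110% passed (2 genes, both higher in MS, and neither on the gene lists used here). At an unadjusted p under 0.05, 0 of the 9 genes passed, where 11.5% of all genes did, and DESeq2's Wald test also passed 0 of the 9 at either threshold. The 3 C1q chains had mean levels 1.08-fold to 1.11-fold higher in MS, Aif1 1.16-fold, Tmem119 1.06-fold and Csf1r 1.03-fold higher, and Cx3cr1, P2ry12 and Trem2 had values of 0.94-fold, 0.96-fold and 0.99-fold. The higher values depended on which mice were used. Without MS 7 the log2 fold change was 0.07 in place of 0.15 for C1qa and 0.03 in place of 0.11 for C1qb. It was 0.06 in place of 0.11 for C1qc, 0.11 in place of 0.21 for Aif1 and 0.03 in place of 0.09 for Tmem119. Without MS 9 it was higher for C1qa (0.18), C1qb (0.14), C1qc (0.17) and Aif1 (0.28), and lower for Tmem119 (0.07). The 95% intervals ran from 0.857-fold (Cx3cr1, lower end) to 1.38-fold (Aif1, upper end). These tests and intervals treat the mice as independent, though nests were assigned to a condition as wholes. The intervals may be too narrow if mice of a nest are alike. The log2 fold change was above 0 for 6 of the 9 genes with a median of 0.09, where 50.3% of all genes tested were above 0 with a median of 0.00084. In these bulk samples the number of microglia and the amount of RNA of a gene per microglial cell cannot be told apart.

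Libraries held between 17276810 and 30449055 counts, and the biological coefficient of variation over all genes was 13.4%. It lay between 8.38% for Csf1r and 15.4% for Aif1, the gene with the fewest counts (34 to 94 per library, against 1213 to 2280 for Csf1r). Such counts carry counting error besides the spread between mice. MS 5 had 0.692 CPM (counts scaled to the TMM-normalized total of the library) of the desmosome gene Dsp, where the other libraries had 54.0 to 138, and 20.4 CPM of Prox1, a transcription factor of dentate granule neurons, where they had 70.3 to 156. It held 418 CPM of Penk, an opioid precursor abundant in the striatum, where the others held 13.8 to 135. MS 5 lay above every other library in 7 of the 9 microglia and C1q genes, for instance with 113 CPM of Csf1r and 46.3 CPM of Cx3cr1, both on the scale of the normalization over 21 libraries. The other libraries are on the scale of the normalization without MS 5, so this count sets unlike scales side by side. With it, the log2 fold changes of C1qa, C1qb, C1qc and Aif1 were 0.21, 0.18, 0.16 and 0.28 (unadjusted p = 0.0180, 0.0302, 0.0479 and 0.0347), and the lowest adjusted p among the 9 was 0.337. The part of striatal tissue in these values was not tested.

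The 3 C1q genes lie next to each other on chromosome 4 of GRCm38, all on the minus strand: C1qb at 136880129-136886187, C1qc at 136889804-136893065 and C1qa at 136895917-136898803. Trem2 (48346401-48354147, plus strand) and Aif1 (35170991-35176068, minus strand) lie on chromosome 17. Cx3cr1 lies on chromosome 9 (119901616-120069879, minus strand), P2ry12 on chromosome 3 (59216272-59262871, minus strand) and Tmem119 on chromosome 5 (113793729-113800516, minus strand). The annotation (GENCODE M21) lists each of the 9 genes as protein coding. P2ry12 shares 9 exonic bases with Med12l on the other strand and Cx3cr1 shares 78 with Gm33858. Whether the counting used the strand is not given in the sources used here, so reads of such pairs may not be told apart. Med12l had a log2 fold change of -0.15 (adjusted p = 0.354), and Gm33858 had a mean count of 3.9 and was not tested.

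The macrophage transcription factor PU.1, coded by Spi1, binds sites built around the bases GAGGAA. These letters were looked for on both strands in the 250 bases before the transcription start of the microglia and C1q genes in RefSeq (GRCm38.p6). Of the 9 genes 6 were in the table used, and 4 of these (Aif1, Trem2, C1qb and C1qc) held GAGGAA or its other strand, TTCCTC, as did 23.3% of the 32851 promoters in the table. The stretches of 60 bases that hold it are shown 5′ to 3′ on the strand of the gene, with these letters in capitals:
C1qb (chr4:136886201-136886260, minus strand, first base of the motif 30 bases before the start): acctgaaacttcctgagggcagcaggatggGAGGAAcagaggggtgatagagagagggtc
C1qc (chr4:136893075-136893134, minus strand, 193 bases before the start): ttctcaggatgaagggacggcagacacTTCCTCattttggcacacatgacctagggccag
Trem2 (chr17:48346341-48346400, plus strand, 40 bases before the start): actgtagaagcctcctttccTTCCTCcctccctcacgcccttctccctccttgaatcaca
Aif1 (chr17:35176053-35176112, minus strand, 7 bases before the start): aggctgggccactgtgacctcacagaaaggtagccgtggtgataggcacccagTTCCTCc
C1qb holds the motif as GAGGAA, and C1qc, Trem2 and Aif1 hold it as TTCCTC. The starts are those of RefSeq. In GENCODE M21 Aif1 reaches to 35176068, past its RefSeq start, so its motif lies inside that annotated gene. A match of 6 bases is a description of the window, and binding was not measured. Whether the motif bears on the levels among mice was not tested.

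The complement chains were considered first. C1q is built from the products of C1qa, C1qb and C1qc in equal number. C1qa had 20.9 CPM in the lowest MS mouse, 25 in the median and 34.3 in the highest, and 19.0, 23.0 and 25.9 CPM in SR. The groups overlapped: 3 of the 8 MS mice lay above every SR mouse and none below every SR mouse, and the mean was 25.4 ± 4.35 in MS (SD, n = 8) and 23.0 ± 1.72 in SR (SD, n = 12). The log2 fold change was 0.15 (SE 0.0734, adjusted p = 0.454), the smallest p among the 9 genes (unadjusted p = 0.0579 in edgeR). C1qb had 26.3, 30 and 42.5 CPM in the lowest, median and highest MS mouse and 24.6, 28.8 and 31.2 CPM in SR. Its means were 30.9 ± 5.05 in MS (SD, n = 8) and 28.5 ± 1.81 in SR (SD, n = 12), and 2 MS mice lay above every SR mouse. The log2 fold change of C1qb was 0.11 (SE 0.0667, adjusted p = 0.532). C1qc had 16.3, 22.7 and 28.5 CPM in the lowest, median and highest MS mouse and 18.4, 21.1 and 23.4 CPM in SR. For C1qc 4 MS mice lay above the SR mice and 1 below them, with means of 22.6 ± 3.64 in MS (SD, n = 8) and 20.9 ± 1.64 in SR (SD, n = 12), at 0.11 on the log2 scale (SE 0.0736, adjusted p = 0.573). MS 7 was the highest MS mouse for each of the 3 chains.

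**Figure D1:**
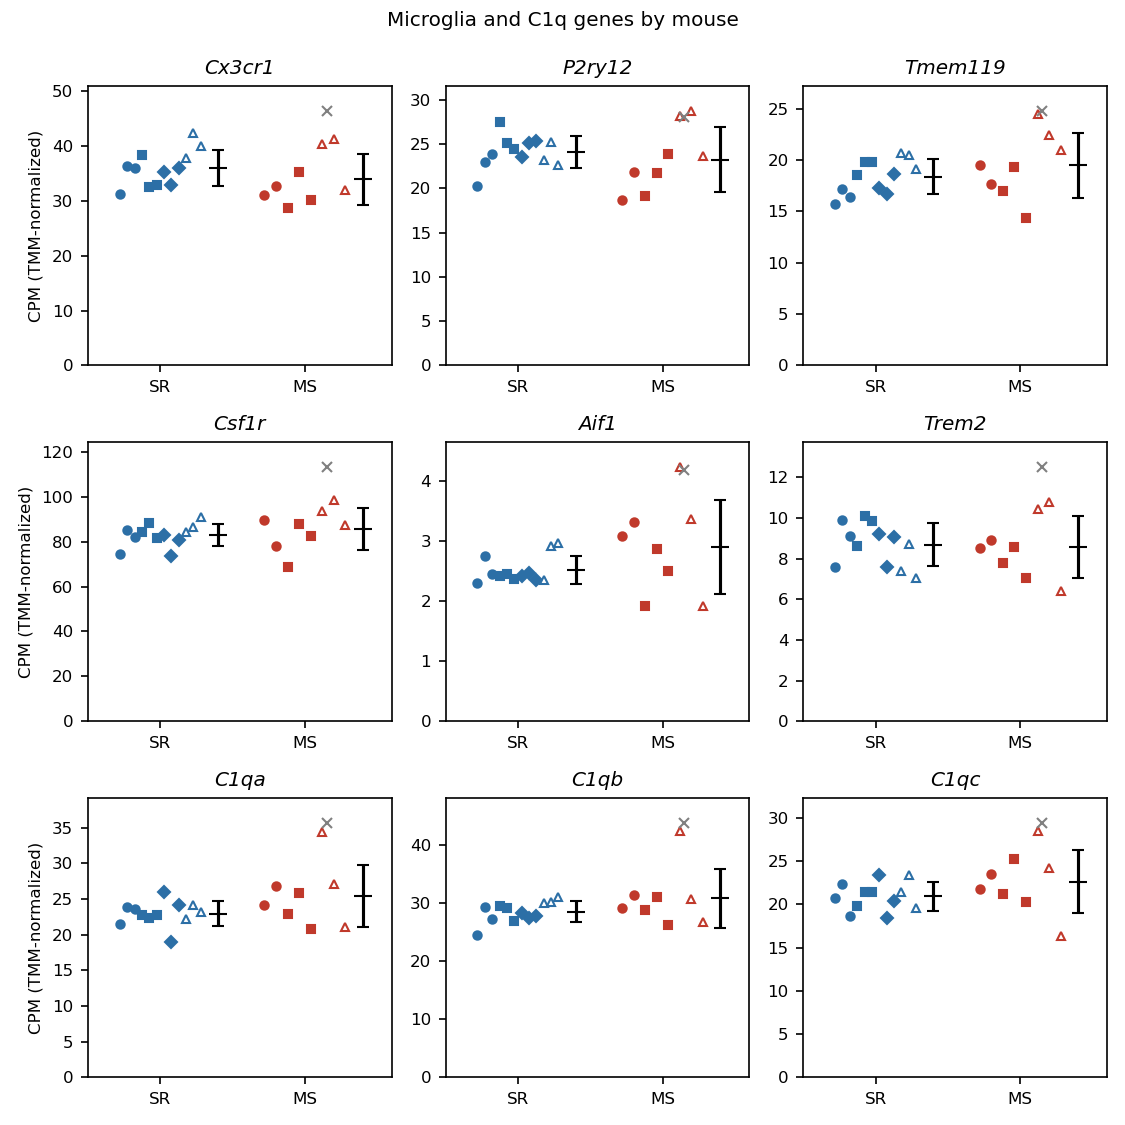
Levels of the 9 genes by mouse, in CPM, each panel from 0 (SR blue, MS red). Each point is a mouse, the point shape within a group stands for its set of animal numbers, open points are mice of the later animal numbers, the grey cross is MS 5, which was left out, and the black bar is the mean ± SD of the other mice (n = 12 SR and n = 8 MS). The groups overlap in each panel, and the MS points are spread wider than the SR points, for C1qa from 20.9 to 34.3 CPM against 19.0 to 25.9. This spread was not tested or set against that of all genes. The grey cross is on the scale of 21 libraries and the points are on that without MS 5.

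The microglial receptors sense signals from neurons and other cells. Cx3cr1, the receptor of the neuronal chemokine Cx3cl1, had 28.6, 32.4 and 41.2 CPM in the lowest, median and highest MS mouse and 31.3, 36.0 and 42.4 CPM in SR. For Cx3cr1 3 MS mice lay below every SR mouse and none above, and the means were 33.9 ± 4.65 in MS (SD, n = 8) and 36.0 ± 3.32 in SR (SD, n = 12) (log2 fold change -0.08, SE 0.0676, adjusted p = 0.674). P2ry12, the nucleotide receptor that guides microglial processes towards ADP and ATP, had 18.7, 22.7 and 28.7 CPM in the lowest, median and highest MS mouse and 20.2, 24.1 and 27.5 CPM in SR. MS mice lay on both sides of the SR range of P2ry12 (2 above and 2 below), with means of 23.2 ± 3.70 in MS (SD, n = 8) and 24.1 ± 1.81 in SR (SD, n = 12) (log2 fold change -0.05, SE 0.0714, adjusted p = 0.831). Csf1r, the receptor of the survival factors Csf1 and Il34, had 68.6, 87.7 and 98.3 CPM in the lowest, median and highest MS mouse and 73.8, 83.6 and 90.8 CPM in SR. Its means of 85.8 ± 9.33 in MS (SD, n = 8) and 82.9 ± 5.03 in SR (SD, n = 12) gave a log2 fold change of 0.05 (SE 0.0525, adjusted p = 0.766), the narrowest interval of the 9 genes (0.960-fold to 1.12-fold). Csf1r lies on chromosome 18 (61100598-61132149, plus strand) and shares 873 of its 5774 exonic bases with Hmgxb3 on the other strand, which was at -0.06 (adjusted p = 0.581). Trem2, a lipid receptor that signals through Tyrobp, had 6.41, 8.57 and 10.8 CPM in the lowest, median and highest MS mouse and 7.05, 8.90 and 10.1 CPM in SR. For Trem2 2 MS mice lay above the SR range and 1 below it, with means of 8.57 ± 1.52 in MS (SD, n = 8) and 8.68 ± 1.05 in SR (SD, n = 12), at -0.02 on the log2 scale (SE 0.0934, adjusted p = 0.969).

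Tmem119 and Aif1 are widely used to mark microglia in tissue. Tmem119, a membrane protein that sets resident microglia apart from most other macrophages, had 14.4, 19.4 and 24.4 CPM in the lowest, median and highest MS mouse and 15.7, 18.6 and 20.7 CPM in SR. For Tmem119 3 MS mice lay above the SR range and 1 below it, and the means were 19.5 ± 3.19 in MS (SD, n = 8) and 18.4 ± 1.69 in SR (SD, n = 12) (log2 fold change 0.09, SE 0.0780, adjusted p = 0.719). Aif1 codes Iba1, a calcium-binding protein of macrophages. It had 1.92, 2.98 and 4.22 CPM in the lowest, median and highest MS mouse and 2.30, 2.43 and 2.96 CPM in SR. MS mice lay on both sides of the narrow SR range of Aif1, 4 above and 2 below, and the means were 2.90 ± 0.780 in MS (SD, n = 8) and 2.52 ± 0.226 in SR (SD, n = 12) (log2 fold change 0.21, SE 0.124, adjusted p = 0.532). The SD of CPM was higher in MS than in SR for each of the 9 genes, and this difference in spread was not tested. Its share over all genes was not taken. Genes outside the 9 also had a higher SD in MS, for instance Apoe (227 and 82.9 in SR) and Lrp1 (63.1 and 23.6), while Mertk (5.27 and 5.93) did not.

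Per kilobase of exon, which allows levels of different genes to be compared, C1qb had 27.1 ± 3.27 CPM per kb (SD, n = 20) and C1qa 23.0 ± 3.07. Csf1r followed with 14.6 ± 1.21, C1qc with 11.2 ± 1.39, P2ry12 with 9.33 ± 1.05, Tmem119 with 8.12 ± 1.03, Cx3cr1 with 7.80 ± 0.871, Trem2 with 1.75 ± 0.247 and Aif1 with 1.74 ± 0.352. In this order the values of mean ± SD of C1qb and C1qa overlapped, as did those of C1qc and P2ry12, of P2ry12 and Tmem119, of Tmem119 and Cx3cr1, and of Trem2 and Aif1. C1qb lay above 90.9% and Aif1 above 33.9% of the 18123 genes ranked per kilobase. The ratio of C1qb to C1qa per kilobase was 1.16 ± 0.0471 in MS (SD, n = 8) and 1.19 ± 0.101 in SR (SD, n = 12), and that of C1qc to C1qa was 0.481 ± 0.0365 and 0.492 ± 0.0333. The means of each ratio lay within 1 SD of each other. Levels per kilobase rest on the union of the annotated exons, which can be longer than any 1 transcript.

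Since nests were assigned as wholes, levels were then compared among sets of mice. The labels name no nest, but the animal numbers form 7 sets of 3 consecutive numbers, each of 1 condition (A to C in MS, with 2 mice of A used, and D to G in SR), and sets C and G have later numbers than the others. Of the 9 genes, Tmem119, P2ry12 and Cx3cr1 had an unadjusted p under 0.05 for differences among the sets of a condition (edgeR p = 0.00112, 0.00829 and 0.0282), and none passed after adjustment (adjusted p = 0.303, 0.439 and 0.504). Of all genes, 9.09% passed at the unadjusted and 0.0331% at the adjusted threshold. Tmem119 had set means of 18.6, 16.9 and 22.6 CPM in A, B and C and of 16.4, 19.4, 17.5 and 20.1 CPM in D, E, F and G. The sets of later numbers were the highest of their condition for Tmem119, and each mouse of C lay above the MS mice of A and B that were used. Cx3cr1 had set means of 31.9, 31.3 and 37.8 CPM in A, B and C and of 34.5, 34.6, 34.6 and 40.1 CPM in D, E, F and G, again highest in C and G. P2ry12 had 20.3, 21.6 and 26.8 CPM in A, B and C and 22.4, 25.7, 24.7 and 23.6 CPM in D, E, F and G, highest in C among MS sets and in E among SR sets. Set C had the highest mean of the MS sets for 8 of the 9 genes (not Aif1). This count rests in part on leaving MS 5 out of set A, and its share over all genes was not taken. MS 5 lay above every other library in 7 of the 9 genes. For C1qa it had 35.6 CPM, on the scale of 21 libraries, where the mean of C was 27.5 on the scale without MS 5. C1qc was at the other end, with an unadjusted p of 0.996 in edgeR for differences among sets. With the library MS 5 in the fit, Tmem119 was the 1 gene of the 9 with an unadjusted p under 0.05 among sets (p = 0.00655 in edgeR, adjusted p = 0.332).

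**Figure D2:**
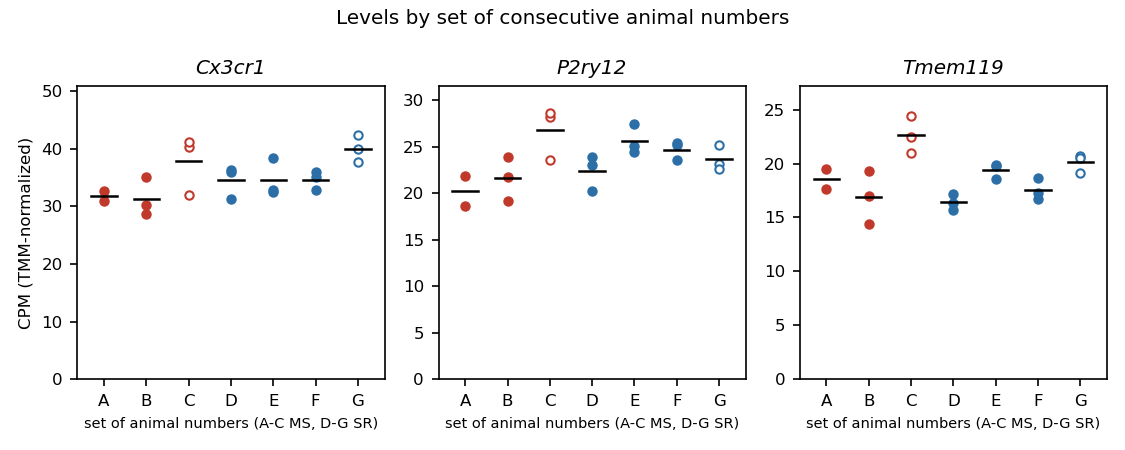
CPM of Cx3cr1, P2ry12 and Tmem119 in each set of mice (A to C from MS in red, D to G from SR in blue). Points are mice, black lines are set means and open points are the sets of later numbers. For Tmem119 the means of C (22.6) and G (20.1) are the highest of their condition.

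The comparison of MS with SR was repeated within the earlier animal numbers (5 MS and 9 SR mice) and within the later ones (3 and 3). None of the 9 genes was called in either range, where 0.0496% (earlier) and 0% (later) of all genes were. P2ry12 in the earlier numbers had 18.7 to 23.9 CPM in MS and 20.2 to 27.5 CPM in SR (log2 fold change -0.20, SE 0.0704, unadjusted p = 0.00871 and adjusted p = 0.175 in edgeR). With Cx3cr1 it made 2 of the 9 genes at an unadjusted p under 0.05 in that range, where 15.1% of all genes were, and in the later numbers 0 of the 9 were, where 6.55% of all genes were. In the later numbers P2ry12 had 28.2, 28.7 and 23.6 CPM in MS and 23.1, 25.2 and 22.6 CPM in SR (log2 fold change 0.18, SE 0.101, adjusted p = 0.784). The later range holds 1 set per condition (C and G), so there the condition and the set cannot be told apart, and the fit treats the 3 mice of a set as independent. The difference between the ranges in P2ry12 was 0.39 on the log2 scale (SE 0.123, unadjusted p = 0.00482, adjusted p = 0.422 in edgeR). Trem2 had log2 fold changes of -0.14 in the earlier and 0.26 in the later numbers (difference 0.40, SE 0.191, unadjusted p = 0.0488, adjusted p = 0.572 in edgeR). At the unadjusted threshold these were 2 of the 9 genes, where 8.67% of all genes passed, and after adjustment none of the 9 and 0% of all genes passed. Cx3cr1 was at -0.13 (SE 0.0637, adjusted p = 0.327) and -0.08 (SE 0.0917, adjusted p = 0.892). C1qc was at 0.11 and 0.10 in the 2 ranges, and C1qa at 0.08 and 0.25. With the library MS 5, the difference was 0.31 for P2ry12 (unadjusted p = 0.0452) and 0.27 for Trem2 (unadjusted p = 0.236 in edgeR).

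**Figure D3:**
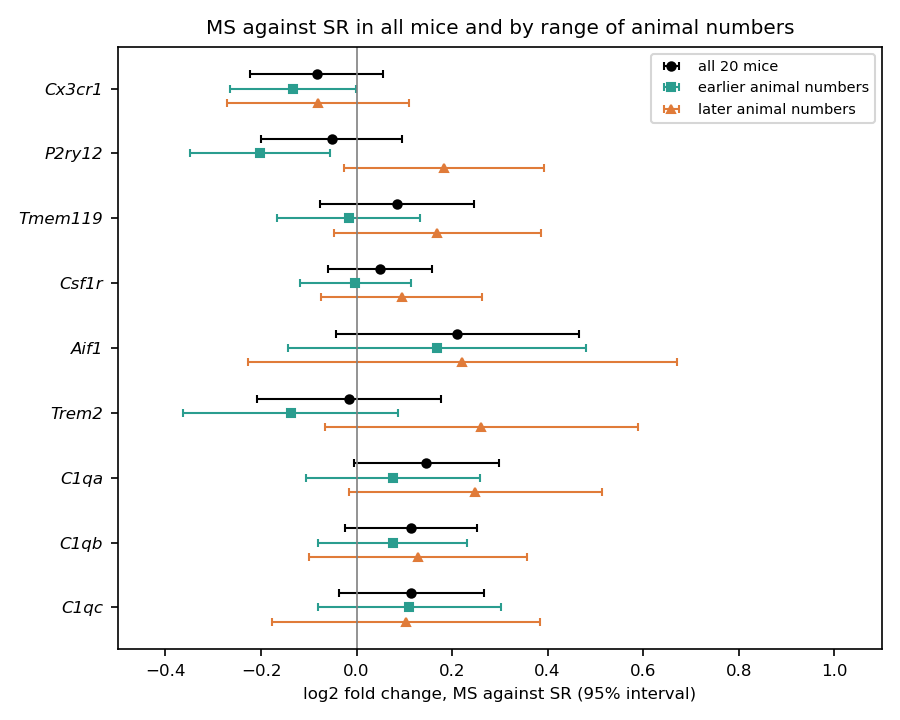
Log2 fold change of MS against SR with its 95% interval for the 9 genes, over 20 mice (black), within the earlier animal numbers (green, 5 MS and 9 SR) and within the later ones (orange, 3 MS and 3 SR). The intervals over 20 mice include 0 for each gene. P2ry12 lies at -0.20 in the earlier and 0.18 in the later numbers.

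Levels of the 9 genes were then compared among mice. After each condition's mean was subtracted, the 36 pairs had Pearson's r of log2 CPM between 0.21 (P2ry12 with C1qc) and 0.82 (C1qa with C1qc) over 20 mice, with a median of 0.56. By permutation within condition with adjustment over the 36 pairs, 16 pairs passed by r and 16 by Spearman's rho. Pairs of other genes were not tested, so no share over all pairs stands beside these counts. P2ry12 passed with 1 gene by r (Cx3cr1, r = 0.63, permutation p = 0.00901, adjusted p = 0.0216) and with none by rho. Each of the 3 pairs of C1q chains passed. C1qa and C1qc had r = 0.82 and rho = 0.74 (permutation p = 0.00022 and 0.00083, adjusted p = 0.00594 and 0.00915), and r was 0.74 without the mice MS 7 and SR 2, the farthest from the median of C1qa. C1qa and C1qb had r = 0.81 and rho = 0.61 (permutation p = 0.0008 and 0.00557, adjusted p = 0.00594 and 0.0201), and r was 0.69 without the same mice. C1qb and C1qc had r = 0.68 and rho = 0.53 (permutation p = 0.0117 and 0.0193, adjusted p = 0.0264 and 0.0433), with r = 0.53 without MS 7 and MS 3. Of the 18 pairs of a C1q chain with another of the genes 8 passed (median r 0.51), and of the 15 pairs among the other 6 genes 5 passed (median r 0.53). Cx3cr1 and Csf1r had r = 0.73 and rho = 0.69 (permutation p = 0.00086 and 0.00175, adjusted p = 0.00594 and 0.00915), and r was 0.63 without MS 8 and MS 7.

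The co-variation rested in part on a few mice. Without the mice farthest from the median of the first gene of each pair, the median r was 0.45 and the lowest 0.047 (Cx3cr1 with Trem2). Within the earlier numbers the median r was 0.45 over 14 mice, and within the later ones 0.82 over 6 mice. With MS 5 it was 0.67 over 21 libraries. Mice of 1 set may not be independent of each other, and these p-values are too small if mice of a set are alike. The mean of the 9 genes on the log2 scale, as a deviation from the condition mean, was highest in MS 7 (0.35) and MS 8 (0.21) and lowest in MS 1 (-0.21), MS 9 (-0.19) and MS 3 (-0.18). In the same libraries the correlation of log2 CPM with exonic length over genes, a measure of how strongly a library weighs long against short transcripts, was 0.451 in MS 7, the lowest, and 0.493 in MS 1, the highest. As a description over 20 mice, this length trend and the mean of the 9 genes had r = -0.75 and rho = -0.43, and r = -0.49 without MS 7 and MS 1. Its part in the co-variation was not tested.

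**Figure D4:**
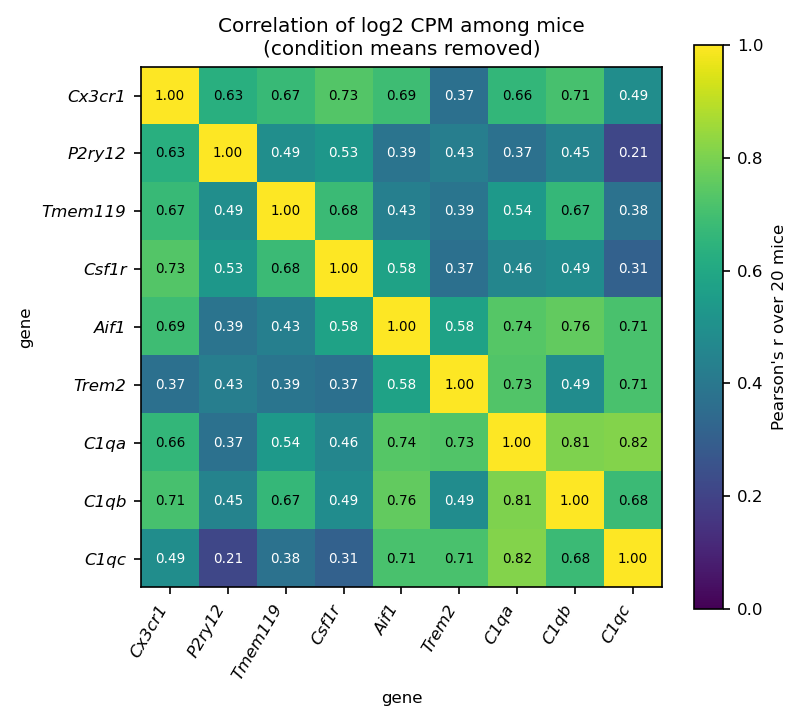
Pearson's r of log2 CPM between the 9 genes over 20 mice, with each condition's mean subtracted (colour scale from 0 to 1, no unit). The 3 C1q chains form a block at the lower right (0.68 to 0.82) that holds both of the highest values, and P2ry12 with C1qc has the lowest value (0.21).

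The genes whose levels followed the mean of the 9 most closely over the 20 mice were Rpsa (r = 0.83), Pmm1 (0.83), Sdccag8 (0.83), Matk (0.81), Vsir (0.81), Gpr37l1 (0.80), St6galnac6 (0.80), Gm10561 (0.80), Siglech (0.80) and Rabl6 (0.79), given without a test. Vsir and Siglech are microglia genes on the list of other homeostatic genes, Rpsa codes a ribosomal protein, Gpr37l1 is a receptor of astrocytes and Gm10561 is annotated as antisense. Over the other 18137 genes tested the median r was -0.0012 and 5.73% had r of at least 0.5. Over the 30 other homeostatic microglia genes the median r was 0.42 and 12 (40.0%) reached 0.5.

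The 30 other homeostatic microglia genes were all tested. Their median was -0.02 on the log2 scale, and none was called. At an unadjusted p under 0.05, 2 of the 30 were higher and 2 lower, where 6.62% of all genes were higher and 4.92% lower. Fcer1g, an adaptor of Fc receptors, was the higher one with the smallest p (log2 fold change 0.28, SE 0.107, adjusted p = 0.303). Spi1, which codes PU.1, was the lower one with the smallest p (log2 fold change -0.26, SE 0.110, adjusted p = 0.366). Summed over the 9 genes, the level was 216 to 307 CPM in MS (median 245) and 218 to 264 CPM in SR (median 249).

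Of 16 ligands and partners of the microglial receptors 14 were tested, with a median log2 fold change of 0.01, and none was called. Cx3cl1, the neuronal ligand of Cx3cr1, had 511 ± 35.1 CPM in MS and 532 ± 30.6 in SR (log2 fold change -0.06, SE 0.0418, adjusted p = 0.630). Both ligands of Csf1r lay close to 0: Csf1 at -0.02 (SE 0.0649, adjusted p = 0.947) and Il34 at 0.02 (SE 0.0513, adjusted p = 0.907). Tgfb1, a cytokine that maintains microglia, was at -0.01 (SE 0.0821, adjusted p = 0.979), and Tyrobp, the signalling adaptor of Trem2, at 0.14 (SE 0.0856, adjusted p = 0.543). Apoe, a lipoprotein bound by Trem2, had the smallest p of the 3 ligands and partners with an unadjusted p under 0.05, all 3 higher, and had 1617 ± 227 CPM in MS and 1467 ± 82.9 in SR (log2 fold change 0.14, SE 0.0599, adjusted p = 0.368).

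Downstream of C1q, 12 of 13 genes of the classical pathway and its receptors were tested, with a median of -0.01, and none was called. The proteases C1ra and C1s1 were at -0.0040 (SE 0.143, adjusted p = 0.995) and -0.06 (SE 0.210, adjusted p = 0.945). C4b had 42.0 ± 6.46 CPM in MS and 42.7 ± 4.48 in SR (log2 fold change -0.02, SE 0.0796, adjusted p = 0.941). C3 lay between 0.690 and 5.20 CPM in MS and between 0.963 and 4.93 CPM in SR (log2 fold change 0.50, SE 0.327, adjusted p = 0.587). Itgam, a chain of complement receptor 3, was at -0.18 (SE 0.0844, unadjusted p = 0.0396, adjusted p = 0.404 in edgeR). Calr, a chaperone of the endoplasmic reticulum that also binds C1q at the cell surface, was at 0.21 (SE 0.0644, unadjusted p = 0.00364, adjusted p = 0.211 in edgeR). Of 11 complement inhibitors 10 were tested (median 0.08), and none was called. Serping1, the inhibitor of C1r and C1s, was at 0.24 (SE 0.157, adjusted p = 0.589), Clu at 0.09 (SE 0.0431, adjusted p = 0.429) and Cd46 at -0.19 (SE 0.0872, adjusted p = 0.411).

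Of 25 genes that microglia raise near amyloid or damage, 19 were tested, with a median log2 fold change of 0.09, and none was called. At an unadjusted p under 0.05, 6 were higher and 0 lower in MS, where 6.62% of all genes were higher and 4.92% lower. Ctsd, a lysosomal protease, had the smallest p (log2 fold change 0.22, SE 0.0778, adjusted p = 0.289), and Apoe is also on this list. Of the 19 tested, 14 were higher and 5 lower in MS, with Spp1 at -0.03 and Gpnmb at -0.09 among the lower. Fth1, also on the list, had a mean of 1532 CPM in MS, where Csf1r, the highest of the 9 genes, had 85.8. In bulk samples the cells that these values came from were not tested. Cst7, a protease inhibitor that defines this state, lay between 0 and 0.364 CPM in MS and between 0 and 0.262 CPM in SR and did not reach the filter on low counts. Itgax, Clec7a, Ccl3, Ccl4 and Ch25h did not reach it either. Of 16 inflammatory cytokine and chemokine genes 9 were tested (median 0.04), and none was called. Nos2, the inducible nitric oxide synthase, had the 1 unadjusted p under 0.05 on that list (log2 fold change -0.48, SE 0.222, adjusted p = 0.413). Its level was low, with 8 to 29 counts per library and means of 0.623 CPM in MS and 0.862 in SR.

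**Figure D5:**
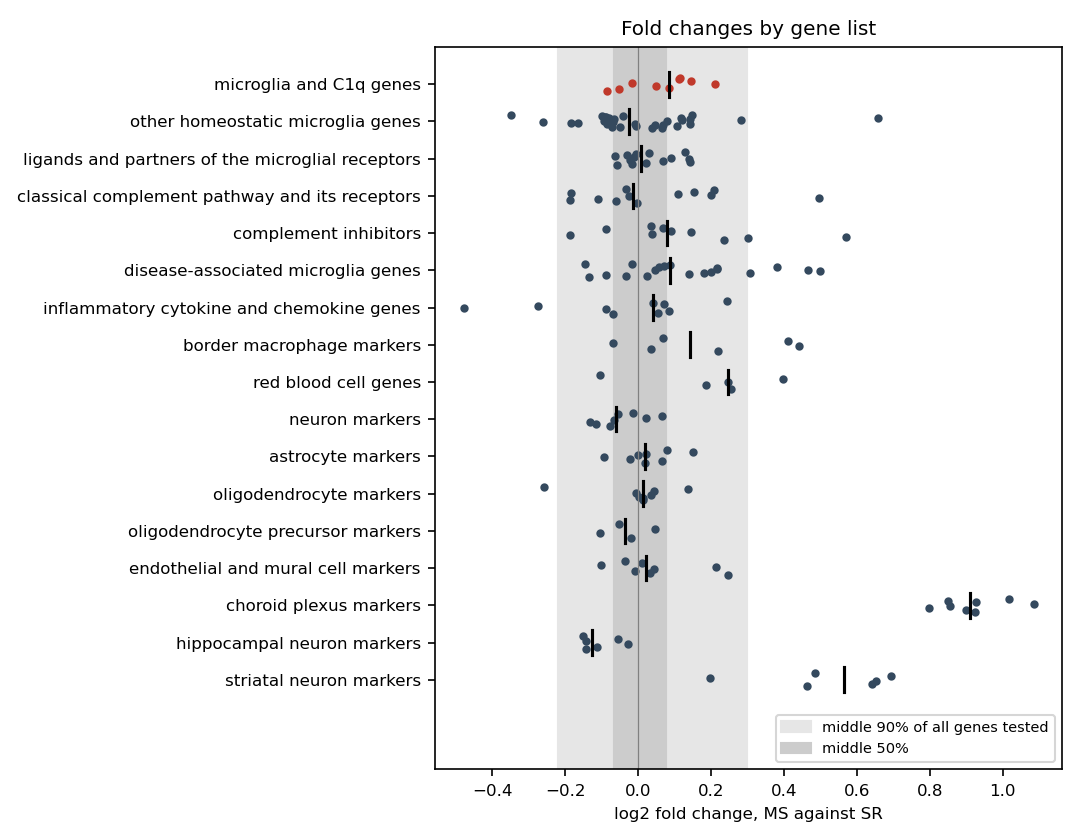
Log2 fold change of MS against SR for each gene tested in the lists, with 1 point a gene and a black bar at the median of each list (the 9 microglia and C1q genes in red), over bands that hold the middle 50% (dark grey) and the middle 90% (light grey) of all genes tested. The 9 genes have a median of 0.09, and the choroid plexus markers lie farthest to the right, with a median of 0.91.

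Markers of other cells were summed beside the microglia and C1q genes. Of 10 border macrophage markers 6 were tested (median log2 fold change 0.14, 0 at an unadjusted p under 0.05), and the list summed to 23.7 to 34.3 CPM in MS and 21.2 to 30 in SR. Mrc1, the mannose receptor that marks these macrophages, had 2.39 ± 0.767 CPM in MS and 2.06 ± 0.737 in SR (adjusted p = 0.752). None of 10 blood leukocyte markers passed the filter on low counts, and they summed to 0.517 to 1.42 CPM in MS and 0.323 to 1.73 in SR. The 5 red blood cell genes had a median of 0.25 (138 to 450 CPM in MS and 144 to 426 in SR, summed). The 8 choroid plexus markers were all higher in the MS mean, with a median of 0.91, none at an unadjusted p under 0.05, and summed to 53.1 to 4210 CPM in MS and 29.2 to 4536 in SR. Ttr, the most abundant of them, had 23.3 to 3765 CPM in MS and 10.4 to 4105 in SR (adjusted p = 0.755).

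Among 8 neuron markers the median log2 fold change was -0.06, with 2 lower at an unadjusted p under 0.05. Syt1, a synaptic vesicle calcium sensor, had 1211 ± 70.3 CPM in MS and 1327 ± 54.6 in SR (log2 fold change -0.13, SE 0.0376, adjusted p = 0.182). DESeq2 called Syt1 with an adjusted p of 0.0258, and it was the 1 gene of the lists that DESeq2 called. The medians were 0.02 for 8 astrocyte, 0.01 for 8 oligodendrocyte, -0.04 for 4 oligodendrocyte precursor and 0.02 for 8 endothelial and mural cell markers. Opalin, a myelin gene, was the 1 of these at an unadjusted p under 0.05 (log2 fold change -0.26, SE 0.108, adjusted p = 0.360). The 6 markers of hippocampal neurons had a median of -0.13 and the 6 of striatal neurons one of 0.56, with none at an unadjusted p under 0.05. The summed striatal markers reached 650 CPM in MS 1 and 407 CPM in SR 8, with a median of 116 in MS and 104 in SR. The part of these cells in the values of the 9 genes was not tested.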

How the data were processed

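Hippocampal poly-A RNA was sequenced, each library from 1 mouse. It was extracted with Trizol, and libraries were made with the NEBNext Ultra II Directional kit and sequenced as paired ends on a NovaSeq6000. The authors aligned reads to GRCm38 with STAR 2.7.3a and used FeatureCounts to count reads per Ensembl gene. They deposited 1 table of raw counts per gene, neither normalized nor filtered. Samples were grouped by the treatment in their labels and are named by group and a number in accession order. No 2 libraries held the same values, and even the closest pair of a group had a chi-square of 3.58 per degree of freedom, where 1 is sampling noise.

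Symbols, positions and exonic lengths are those of GENCODE M21 on GRCm38, which has an entry for 55227 of the 55487 genes, and promoter sequences those of RefSeq. The study's methods removed 1 outlier by PCA. Here the library farthest from the median of the others on the first component of DESeq2's variance-stabilised counts (500 most variable genes) was left out. Counts were filtered with filterByExpr (minimum count 10), normalized by TMM and compared with edgeR 4.0.16's quasi-likelihood test with robust fitting (R 4.3.3), with Benjamini-Hochberg adjustment over all 18146 genes tested and a threshold of 0.05. A standard error is the absolute log2 fold change over the root of edgeR's F. The same test was used for sets of animal numbers and for the interaction with their range. Log2 CPM used a prior count of 2, and correlations were tested with 100000 permutations within condition.

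The 9 genes, the 17 lists beside them and the tests were chosen with earlier results of these data known. Named are the 9 genes, 16 fixed genes of their pathways and cell types (1 of which is not reported here), the gene of smallest unadjusted p under 0.05 in each direction of each list, listed genes called after adjustment, and the 10 genes most like the mean of the 9. Dsp, Prox1 and Penk, the other strand's genes and Syt1's DESeq2 value are given in addition. Alternatives were all 21 libraries, DESeq2 1.42.0's Wald test and size factors, no filter, at least 10 counts in every library, the range or the length trend as a term, counts summed within sets, limma-voom (limma 3.58.1) with the set as a random block, and each set or library left out.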

Additional observations from a re-analysis of the deposited data

Results flagged for a closer look

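C1qa in MS 7 was far from the other MS mice, at 34.3 CPM with the next highest of the 8 mice at 27.1, a gap of 0.538 of the whole range where Dixon's 95% critical value for 8 samples is 0.526. C1qb in the same mouse, at 42.5 CPM with the next at 31.4, had a gap of 0.683 of the range. Cst7 in MS 3, at 0.364 CPM with the next at 0.136, had a gap of 0.626 of the range, and its highest count in any library was 8. Chance marks about 1 in 20 such groups, and the MS groups of 25 genes were looked at.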

How the results depend on the processing

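None of the 9 microglia and C1q genes was called in any of the 36 alternatives (at most 5 of 9 at an unadjusted p under 0.05, without set B, where 1769 of 18640 genes passed), and none in the tests of sets or of ranges with DESeq2's size factors or all 21 libraries. Over all genes, 2 were called, against 134 with DESeq2 (88 higher, 46 lower, 1 of them on the lists), 1 with all 21 libraries, 1 without a filter, 0 with counts summed within sets and 0 with limma-voom and the set as a random block (correlation within sets 0.0466). Leaving out a set or a library gave 0 to 340 genes, the highest without set C and 109 without MS 8 or MS 9. Trem2 ranged from -0.086 (without set C) to 0.058 (with all 21 libraries), with 0.057 without set B. Its sign reversed in 8 of the 36 alternatives. P2ry12 ranged from -0.19 (without set C) to 0.0074 (without set A), with 0.0052 without set B. Tmem119 ranged from -0.064 (without set C) to 0.19 and Csf1r from -0.028 (without set C) to 0.11, both highest without set B. Without set C, P2ry12 and Cx3cr1, at -0.19 each, had the lowest adjusted p of any of the 9 (0.109 and 0.123). Aif1 and the 3 C1q chains stayed above 0 and Cx3cr1 below 0 in each alternative, but their size moved: with the length trend as a term C1qa was at 0.091, C1qb at 0.073, C1qc at 0.066 and Aif1 at 0.11, and without MS 7 they were at 0.071, 0.033, 0.059 and 0.11. Without set C, C1qa was at 0.071, C1qb at 0.041 and Aif1 at 0.13. Without set B they were higher than in the main fit, C1qa at 0.22, C1qb at 0.17, C1qc at 0.13 and Aif1 at 0.34. With counts summed within sets, 2 of the 9 had an unadjusted p under 0.05 in edgeR, where 1753 of 21752 genes did. They were C1qa at 0.15 (p = 0.0332, adjusted p = 0.577 in edgeR) and C1qc at 0.12 (p = 0.0253, adjusted p = 0.543 in edgeR). Of the 10 genes most like the mean of the 9, 4 were shared with all 21 libraries. The causes were not tested. No paired analysis was possible because the numbers of MS and SR mice follow accession order and pair no mice. Aif1, with 34 to 94 counts per library, had the widest interval of the 9.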
